A study of Mus musculus with 4 samples.

Results

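Positional homeobox and patterning factors are the transcription factors that tell embryonic cells where in the body they lie. The set was defined by gene symbol alone and takes the Hox genes of clusters A to D together with the families of Zic, Tbx, Pitx, Meis, Pbx and Irx genes and the family of Six2. It came to 65 genes, represented by 85 probe sets, out of 12393 named genes on the array. RefSeq lists 79 symbols of these families, and the other 14 were not analysed here. Where a gene had several probe sets, which was so for 17 of the 65, the one with the highest mean over the 4 arrays stood for it.

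The samples were fibroblasts of mouse embryos, the collagen-making cells of connective tissue, kept in culture, of the strain labelled C57/BJ6. They were measured on 4 Affymetrix arrays, 1 for each combination of a genotype label, Npm1+/+ or Npm1+/-, with an RNA label, total or ribosome-bound (polysome) RNA from sucrose gradients. Npm1 encodes nucleophosmin, a chaperone of the nucleolus needed for making ribosomes, and by its design text the series asks how loss of Npm1 skews the RNAs being translated. The embryonic stage, the body part and the number of embryos behind each culture are not given in the sources used here. With 1 array in each group no value has a replicate error and no test was possible, so differences are between single libraries.

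Hox genes lie in 4 clusters and are switched on in the order in which they lie, so that low-numbered paralogues mark the head and neck end of the body and high-numbered ones the tail end and the distal limb. Hox proteins bind DNA together with Meis and Pbx proteins, which carry homeodomains of the TALE class, as do the Irx proteins. Fibroblasts taken into culture are known to keep much of the Hox pattern of the place they came from. Zic proteins are zinc finger factors and Tbx proteins carry a T-box, so neither belongs to the homeobox class.

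Of the 65 genes, 32 reached the median of all values, 7.53 on the log2 scale, on at least 1 array. They are called measured here. That is 49.2% of the set, against 57.9% of all named genes. All 4 arrays reached that level for 27 of the 32. The other 5 did so on some arrays only, so that a difference between libraries is partly built into their selection. These were Hoxa10 and Pitx1 on 2 arrays each and Tbx3, Tbx5 and Zic1 on 3 each. Just inside the limit lay Hoxa10, Tbx3 and Six5, with highest values of 7.85, 7.87 and 7.88. Just outside lay Hoxa11 (7.50), Meis3 (7.45) and Hoxc5 (7.36). Probe sets differ in brightness for the same amount of RNA, so levels are compared only within a gene.

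The Hox genes that were measured lay mainly in the middle of the clusters. Of 16 members with paralogue numbers 4 to 9, 12 reached the median on all 4 arrays. Of 9 members numbered 10 to 13 this held for none, and only Hoxa10 reached it at all, in the total RNA libraries. Of 6 members numbered 1 to 3 it held for Hoxa3, Hoxb2 and Hoxb3. The division into these stretches was made after the values were seen. By cluster, 5 of 9 Hoxa, 5 of 9 Hoxb, 4 of 6 Hoxc and 2 of 7 Hoxd members were measured.

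**Figure D1:**
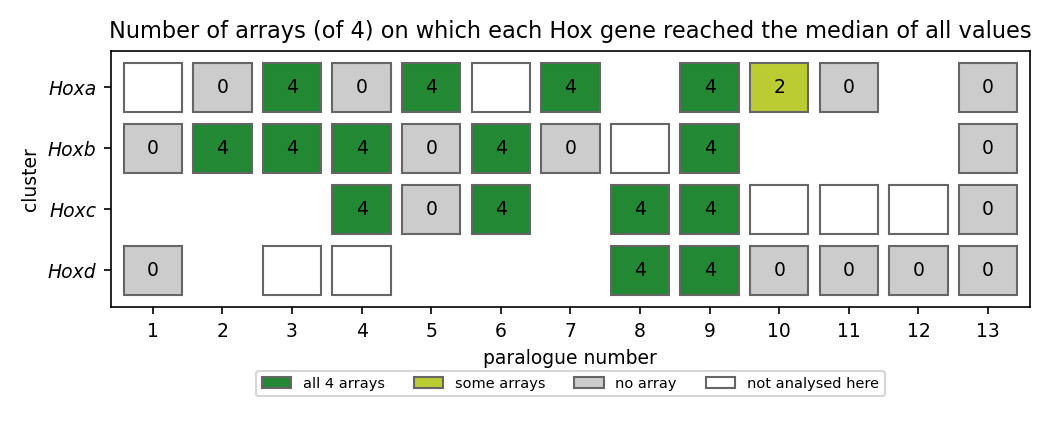
Each box is a Hox gene, placed by cluster (vertical axis) and paralogue number (horizontal axis), and the figure in it is the number of arrays, of 4, on which the gene reached 7.53. White boxes are genes not analysed here, and a place without a box holds no gene of that number. Boxes with 4 run from paralogue 2 to paralogue 9, and past 9 only Hoxa10 was above 0.

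The limb and craniofacial factors were also divided. Tbx5, which marks the forelimb, reached the median on 3 arrays, whereas Tbx4, a hindlimb gene, had a highest value of 5.61. The dimmer probe set of Tbx5 stayed below the median on all 4 arrays, at 6.21 to 6.39. Pitx1, which acts upstream of Tbx4 in the hindlimb, reached 8.01 in total RNA, and its dimmer probe set read 5.99 to 7.24. As levels are compared only within a gene, these values do not rank forelimb against hindlimb genes. In all, 33 genes stayed below the median on every array, with highest values from 4.17 (Six6) to 7.50 (Hoxa11). They comprised 15 Hox genes, 8 Tbx genes (Tbx1, Tbx2, Tbx4, Tbx6, Tbx18, Tbx19, Tbx20 and Tbx21), Zic2, Zic4, Zic5, Six3, Six6, Irx4, Irx6, Meis3, Pbx4 and Pitx3. None of these 33 differed by 1.5-fold between genotype labels. Between fraction labels Hoxd10 read 0.75 higher in polysome RNA under the Npm1+/+ label and 0.79 higher under the Npm1+/- label, Hoxa4 0.60 and 0.71, and Hoxa2 0.55 and 0.80, all from values no higher than 6.57. These 3 were named after their values were seen.

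The labelled cell type was checked against marker genes. All 14 fibroblast markers on the array reached the median on all 4 arrays, among them Col1a1, Vim and Thy1. None of 10 epithelial and none of 8 pluripotency markers did so on any array. Of other cell types these reached it on at least 1 array. Endothelial cells were represented by Kdr and Flt1 of 10 markers, neural cells by Tubb3 and Pou3f2 of 11, skeletal muscle by Des and Acta1 of 10 and cartilage by Col2a1 of 8. Of 14 macrophage markers, 3 reached the median in each total RNA library, 7 in the Npm1+/+ and 9 in the Npm1+/- polysome library. Npm1 itself did not differ with its label. Its brighter probe set read 11.91 and 11.96 in total RNA and 12.93 and 12.84 in polysome RNA, with the Npm1+/+ library first. Directions below are therefore given between libraries as labelled.

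The promoters printed are those of Six2 and Irx3, both lower in polysome RNA under both labels. No promoter sequence was at hand for some members with larger differences than Irx3, such as Tbx15 and Hoxc8. At the chosen probe sets Six2 was the single member past 2-fold in any comparison, and Irx3 passed 1.5-fold under the Npm1+/- label. The sequences are from RefSeq (GRCm38.p6), on the gene's own strand, and end at the base before the start of transcription. Both genes lie on the minus strand, Six2 at chr17:85688255-85688504 and Irx3 at chr8:91801655-91801904. Capitals mark matches to TGACAG, the core of a Meis site, on either strand.

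Six2 promoter: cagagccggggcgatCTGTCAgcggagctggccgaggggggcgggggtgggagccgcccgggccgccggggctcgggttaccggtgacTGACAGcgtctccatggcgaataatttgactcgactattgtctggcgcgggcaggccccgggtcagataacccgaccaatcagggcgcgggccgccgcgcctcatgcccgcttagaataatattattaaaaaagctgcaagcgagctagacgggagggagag

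Irx3 promoter: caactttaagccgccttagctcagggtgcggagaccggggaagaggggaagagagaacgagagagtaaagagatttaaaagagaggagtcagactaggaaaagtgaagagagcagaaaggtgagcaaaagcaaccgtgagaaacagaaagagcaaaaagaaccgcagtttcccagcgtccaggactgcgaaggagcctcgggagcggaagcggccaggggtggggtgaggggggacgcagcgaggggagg

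The Six2 window held 2 such matches, at 235 to 230 bases before the start on the opposite strand and at 162 to 157 bases on the gene's own strand. It had 26 CpG pairs and 64.8% G and C. In the Irx3 window none of the 5 motifs searched was found. It had 13 CpG pairs and 56.0% G and C. RefSeq windows of this kind were at hand for 42 of the 65 genes, 46 windows in all. Their median of 13 CpG pairs compared with 6 over all 32851 windows. TGACAG was found in 15.2% of the members' windows and 15.9% of all windows, and TATAAA, the TATA box, in 10.9% and 12.4%. TGATTNAT, a joint Pbx and Hox site, was in 6.52% and 2.82%, TAATTA, a homeodomain core, in 8.70% and 4.84%, and AGGTGTGA, a T-box half-site, in 2.17% and 1.12%. The last 3 shares of the members rest on 3, 4 and 1 of the 46 windows. In the 20 windows of measured members TGATTNAT and TAATTA were found in 0. These are matches of letters on both strands, and motifs may overlap. Several members have more than 1 window.

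**Figure D2:**
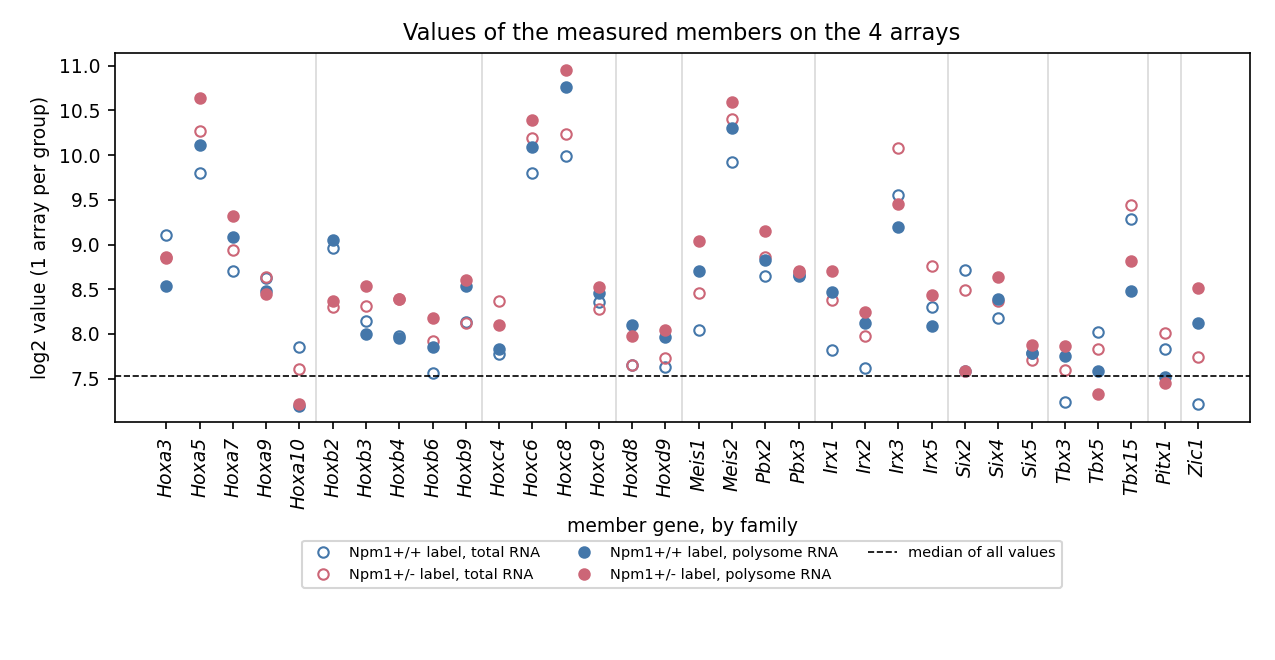
Log2 value (vertical axis) of the 32 measured members on the 4 arrays, 1 point per array, with families separated by vertical lines. Open points are total RNA, filled points polysome RNA, blue the Npm1+/+ and red the Npm1+/- label, and the dashed line is the median of all values, 7.53. The filled points of Six2 lie near 7.6 and its open points at 8.49 and 8.71, whereas those of Zic1 run the other way.

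The first comparison asks how RNA levels differed between the genotype labels. Differences between the libraries were small for most of these genes. In total RNA none of the 32 measured members reached a 2-fold difference, against 1.73% of the 7179 genes measured by the same rule. In polysome RNA it was again none, against 1.25%. At 1.5-fold, a log2 difference of 0.58, Hoxc4 was higher and Hoxb2 lower in the Npm1+/- total library, 1 member each, where 7.42% of all genes were higher and 6.23% lower. In polysome RNA no member was higher and Hoxb2 was lower, beside 2.08% and 5.86% of all genes. As technical spread, the differences of 2 probe sets of the same gene disagreed with an SD of 0.32 in total and 0.28 in polysome RNA over 2700 genes. Some cell markers also moved with the genotype label. Col2a1, the only measured one of 8 cartilage markers, was at -0.97 in total and -0.77 in polysome RNA. The fibroblast marker Col5a1 was at -1.02 and -0.88, and the median over the 14 fibroblast markers was -0.16 in both. The summed macrophage markers were higher under the Npm1+/- label (values below). What part other cells had in the members' differences was not tested.

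Hoxb2, which patterns the hindbrain and neck, read 8.96 in the Npm1+/+ and 8.31 in the Npm1+/- total library, and 9.05 and 8.37 in polysome RNA. The difference was -0.65 (1.57-fold) in total and -0.68 (1.60-fold) in polysome RNA. It stayed past 1.5-fold under each of the other scalings tried. The next measured genes of the cluster were not lower in the Npm1+/- libraries. Of the members below the median level, Hoxb5 was at 0.48 in total and 0.52 in polysome RNA. Hoxb1, Hoxb7 and Hoxb13 were at -0.04, -0.20 and -0.32 in total and -0.05, -0.10 and -0.05 in polysome RNA. Hoxb3 read 8.14 and 8.31 in total and 8.00 and 8.54 in polysome RNA. Hoxb4 read 7.98 and 8.39 in total and 7.96 and 8.39 in polysome RNA, and its dimmer probe set differed by 0.26 and 0.44. Hoxb6 read 7.56 and 7.92 in total and 7.85 and 8.17 in polysome RNA. For these 3 genes the Npm1+/- library was the higher of each pair. Hoxb9, at the far end of the cluster, read 8.13 and 8.12 in total and 8.54 and 8.61 in polysome RNA, with hardly any difference by genotype label.

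In the Hoxc cluster the largest difference was in Hoxc4, a marker of the neck and upper trunk. It read 7.77 and 8.37 in total RNA, a difference of 0.59 (1.51-fold), and 7.83 and 8.10 in polysome RNA, a difference of 0.26. After quantile normalisation or subtraction of the trend with level it was under 1.5-fold. Hoxc6 read 9.80 and 10.19 in total and 10.10 and 10.39 in polysome RNA. Its second bright probe set gave differences of 0.30 and 0.16, in the same direction. Its remaining probe set, below the median level, was at -0.09 and 0.29, and the mean of all its probe sets differed by 0.20 in total RNA. Hoxc8 differed by 0.24 and 0.20, the former turning to -0.02 when the trend with level was subtracted. Hoxc9 was at -0.08 and 0.06.

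Hoxa5, known for its part in lung and cervical spine development, read 9.80 and 10.27 in total and 10.11 and 10.63 in polysome RNA. It was higher in the Npm1+/- library of each pair, by 0.47 and 0.52. Hoxa7 differed by 0.24 and 0.23 in the same direction. Hoxa9 was at 0.02 and -0.03, but at -0.44 and -0.31 at its other probe set, so its probe sets did not agree. Hoxa3, which patterns the pharyngeal arches and neck, read 9.10 and 8.86 in total and 8.54 and 8.85 in polysome RNA, with opposite signs. Its other probe set gave 0.17 and 0.47, so the sign in total RNA depended on the probe set. In the Hoxd cluster, Hoxd8 read 7.65 in both total libraries and was at -0.13 in polysome RNA, and Hoxd9 was at 0.11 and 0.08.

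All 4 measured Irx genes, which pattern heart, limb and nervous system, read higher in the Npm1+/- library of both RNA kinds. Irx1 read 7.82 and 8.38 in total and 8.47 and 8.70 in polysome RNA. Irx3 read 9.56 and 10.09 in total and 9.20 and 9.45 in polysome RNA. Irx2 and Irx5 differed by 0.36 and 0.46 in total and by 0.12 and 0.34 in polysome RNA. The family median was 0.50 in total and 0.25 in polysome RNA, beside 0.19 and 0.11 over all measured genes. Under the other scalings the 4 genes remained above 0, between 0.27 and 0.55 in total and between 0.06 and 0.36 in polysome RNA. None of them reached 1.5-fold. Irx4 and Irx6, both below the median level, were at 0.35 and -0.19 in total and at -0.01 and -0.17 in polysome RNA.

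All 4 measured Hox cofactors were above 0 in both RNA kinds as deposited, with a median of 0.31 in total and 0.30 in polysome RNA. Meis3, just below the median level, was at -0.30 and -0.23. Meis2 read 9.92 and 10.41 in total and 10.31 and 10.59 in polysome RNA. Meis1 read 8.04 and 8.46 in total and 8.71 and 9.04 in polysome RNA. Pbx2 differed by 0.21 and 0.32, and its 2 dimmer probe sets by 0.30 and 0.52 in total and 0.40 and 0.37 in polysome RNA. Pbx3 was flat, at 0.06 and 0.03, and turned negative under another scaling.

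Of the remaining families, Zic1, a factor of the dorsal neural tube and somites, read 7.22 and 7.74 in total and 8.12 and 8.51 in polysome RNA. Its differences by genotype label were 0.52 and 0.40. Tbx5 was lower in the Npm1+/- library of each pair, at -0.18 and -0.26, whereas its dimmer probe set was at 0.18 and -0.12. Tbx3 and Tbx15 were higher by 0.35 and 0.16 in total and by 0.12 and 0.33 in polysome RNA. The dimmer probe set of Tbx3 had the opposite sign, at -0.28 and -0.23. The Tbx15 difference in total RNA turned to -0.04 under another scaling, and its second probe set gave 0.45 and 0.19. Six2 was at -0.22 and 0.01, Six4 at 0.19 and 0.24, Six5 at -0.08 and 0.10. The dim second probe set of Six4 gave -0.33 and -0.63. Pitx1 was at 0.18 and -0.07 at the chosen probe set, but at 1.26 and 0.41 at a second one, which read 5.99 and 7.24 in total RNA and so lay below the median throughout.

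Over the 32 measured members the median difference was 0.20 in total RNA, with 23 above 0, and 0.23 in polysome RNA, with 27 above 0. Over all measured genes the medians were 0.19 and 0.11, and 66.1% and 62.9% of genes were above 0. Over the 27 members above the median on all 4 arrays the medians were 0.21 and 0.24, beside 0.20 and 0.12 for the 6347 genes of that kind. In total RNA the members' median was thus close to that of the array as a whole, which quantile normalisation moved to 0.08 and the trend with level to 0.03. In the 2 comparisons, which share no array, 21 members were above 0 in both and 2 below 0 in both, Hoxb2 and Tbx5, while 8 differed in sign and Hoxd8 was at 0 in total RNA. Over all measured genes 87.2% had the same sign in both. The cultures behind the total and the polysome RNA of 1 label, shared or separate, are not given in the sources used here. No member went opposite ways at 1.5-fold.

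**Figure D3:**
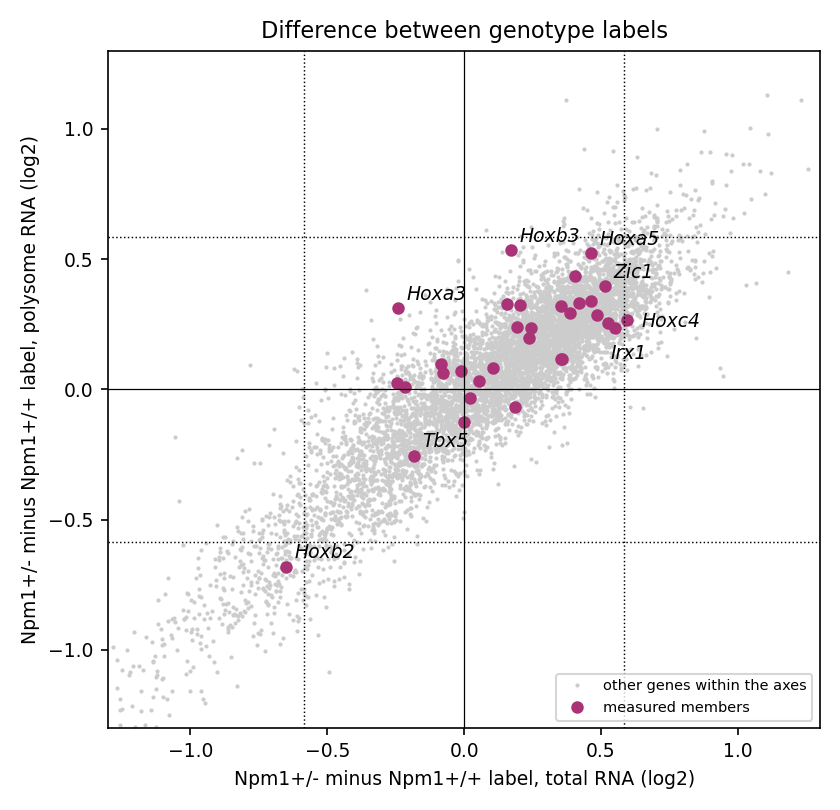
Log2 difference between the Npm1+/- and Npm1+/+ libraries in total RNA (horizontal axis) and polysome RNA (vertical axis) for the 32 measured members (purple) over the other measured genes that fall within the axes (grey). Dotted lines mark 1.5-fold. Hoxb2 lies past the line on both axes, at -0.65 and -0.68, and Hoxc4 past it in total RNA only, at 0.59.

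The second comparison, between fraction labels, asks which RNAs were held on ribosomes. Here a few members stood farther from 0 than in the first. Under the Npm1+/+ label, 1 member, Six2, was past 2-fold, beside 0.919% of all measured genes, and under the Npm1+/- label none was, beside 0.766%. At 1.5-fold, 4 members were higher and 3 lower in polysome RNA under the Npm1+/+ label, where 3.65% and 1.56% of all genes were. Under the Npm1+/- label 2 members were higher and 3 lower, beside 2.24% and 1.35%. These counts include Hoxa10 and Zic1, which were measured on some arrays only, so part of their difference is built into their selection. Among the 27 members above the median on all 4 arrays, 3 were higher and 2 lower under the Npm1+/+ label. Under the Npm1+/- label 1 of the 27 was higher and 3 were lower. The share of all genes past 1.5-fold was not taken at that floor. The balance depended on the scaling. With centring, quantile normalisation or the trend with level subtracted, 2 members were higher and 4 lower under the Npm1+/+ label, Hoxc8 and Zic1 against Hoxa3, Hoxa10, Six2 and Tbx15. Under the Npm1+/- label 2 were then higher and 5 or 6 lower, with Pitx1 and Tbx5 added in each case and Hoxa11, just under the floor as deposited, in centring and quantile normalisation. Probe sets of 1 gene disagreed with an SD of 0.28 under the Npm1+/+ and 0.24 under the Npm1+/- label. Markers of other cells also differed between the fraction labels. The summed linear intensity of the 14 macrophage markers was 1373 and 1663 in the total and 3196 and 4178 in the polysome libraries, the Npm1+/+ library first. Of the 14 macrophage markers, 9 of them measured, 6 were past 2-fold higher in polysome RNA under both labels. They were led by C1qb (2.44 and 2.97), Ctss (2.43 and 2.40) and Lyz2 (2.23 and 2.25). C1qa, C1qb, C1qc, Fcer1g and Ctss were measured only through polysome libraries, so their difference is partly built into their selection. Csf1r (0.05 and -0.22) and Laptm5 (0.14 and 0.04), above the median on all 4 arrays, differed little. The defining markers Ptprc (4.53 to 4.87) and Adgre1 (5.64 to 6.17) stayed below the median on all 4 arrays. Col2a1, the only measured cartilage marker, was at -0.83 and -0.63. The 2 measured endothelial markers went opposite ways, Flt1 at 0.64 and 0.72 and Kdr at -0.54 and -0.37. The part of other cells in the members' differences was not tested. In bulk RNA, fewer cells of a kind and less RNA in each cell cannot be told apart.

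Six2, which maintains progenitor cells of the kidney and acts in craniofacial mesenchyme, read 8.71 and 8.49 in the total libraries and 7.58 and 7.59 in the polysome libraries, with the Npm1+/+ library first. The difference was -1.13 (2.19-fold) under the Npm1+/+ label and -0.91 (1.87-fold) under the Npm1+/- label. Its polysome values lay just above the median of all values. Six4 and Six5 did not share it, with differences of 0.21 and 0.26 for Six4 and of -0.01 and 0.17 for Six5.

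Tbx15, a T-box gene of the skin and skeleton, read 9.29 and 9.45 in total and 8.48 and 8.81 in polysome RNA. Its differences were -0.81 (1.75-fold) and -0.64 (1.55-fold), and those of its second probe set -0.60 and -0.87, so both probe sets and both labels gave the same direction. Tbx5 read 8.02 and 7.83 in total and 7.58 and 7.33 in polysome RNA. Its dimmer probe set, far below the median, was at 0.16 and -0.14. Tbx3, a gene of limb and mammary patterning, ran the other way, from 7.24 and 7.59 in total to 7.75 and 7.87 in polysome RNA. Pitx1 read 7.83 and 8.01 in total and 7.51 and 7.45 in polysome RNA, with differences of -0.31 and -0.57. Its dimmer probe set was at 0.16 and -0.68, so the sign under the Npm1+/+ label depended on the probe set.

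Zic1 had the largest difference toward polysome RNA, 0.90 (1.86-fold) under the Npm1+/+ label and 0.78 (1.71-fold) under the Npm1+/- label. Its value of 7.22 in the Npm1+/+ total library lay below the median, so it was measured partly through the polysome libraries. Hoxc8, which patterns the thoracic trunk, read 9.99 and 10.23 in total and 10.76 and 10.96 in polysome RNA. With all 4 values well above the median, its polysome libraries lay above its total libraries by 0.77 (1.70-fold) and 0.73 (1.65-fold). Meis1 was higher in polysome RNA by 0.67 (1.59-fold) and 0.58, and Meis2 by 0.39 and 0.19. Under the other scalings Hoxc8 and Zic1 kept past 1.5-fold, whereas Meis1 and Irx1 did not.

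The 4 measured Irx genes divided by chromosomal cluster, a grouping made after their values were seen. Irx1 and Irx2, neighbours in the first, were higher in polysome RNA. Irx1 differed by 0.64 (1.56-fold) under the Npm1+/+ and 0.33 under the Npm1+/- label, and Irx2 by 0.51 and 0.27. Irx3 and Irx5, neighbours in the second, were lower, Irx3 at -0.36 and -0.63 (1.55-fold) and Irx5 at -0.21 and -0.33. The signs of these 4 were the same under each of the other scalings. Irx4, of the first cluster, and Irx6, of the second, lay below the median level, at -0.08 and -0.44 and at -0.07 and -0.05.

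Among Hox genes, Hoxa10 read 7.85 and 7.61 in total and 7.20 and 7.22 in polysome RNA, with differences of -0.65 (1.57-fold) and -0.38. It was measured only through its total libraries. Hoxa5 and Hoxa7 were higher in polysome RNA under both labels, by 0.31 to 0.38, as were Hoxd8 and Hoxd9, by 0.32 to 0.45, and Hoxb9, by 0.40 and 0.48. Hoxb6 was at 0.29 and 0.25 and Hoxc6 at 0.30 and 0.20. Hoxa9 leaned the other way, at -0.14 and -0.20. Hoxa3 was at -0.56 and -0.01, but at 0.12 and 0.42 at its other probe set, so its probe sets did not agree. Hoxb2, the gene with the largest difference by genotype label, was at 0.09 and 0.06 and turned negative under the other scalings.

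Over the measured members the median difference between fractions was 0.14 under the Npm1+/+ and 0.21 under the Npm1+/- label, beside 0.14 and 0.07 for all measured genes. Over the 27 members above the median on all 4 arrays the medians were 0.18 and 0.22, beside 0.14 and 0.07 for the 6347 genes of that kind. Of the 32 members 18 were above 0 and 9 below 0 under both labels, and 5 changed sign between them. Over all measured genes 75.6% had the same sign under both. The median under the Npm1+/+ label was between -0.04 and -0.02 under the other scalings, which moved that of all genes from 0.14 to between 0.00 and 0.02. No member went opposite ways at 1.5-fold.

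**Figure D4:**
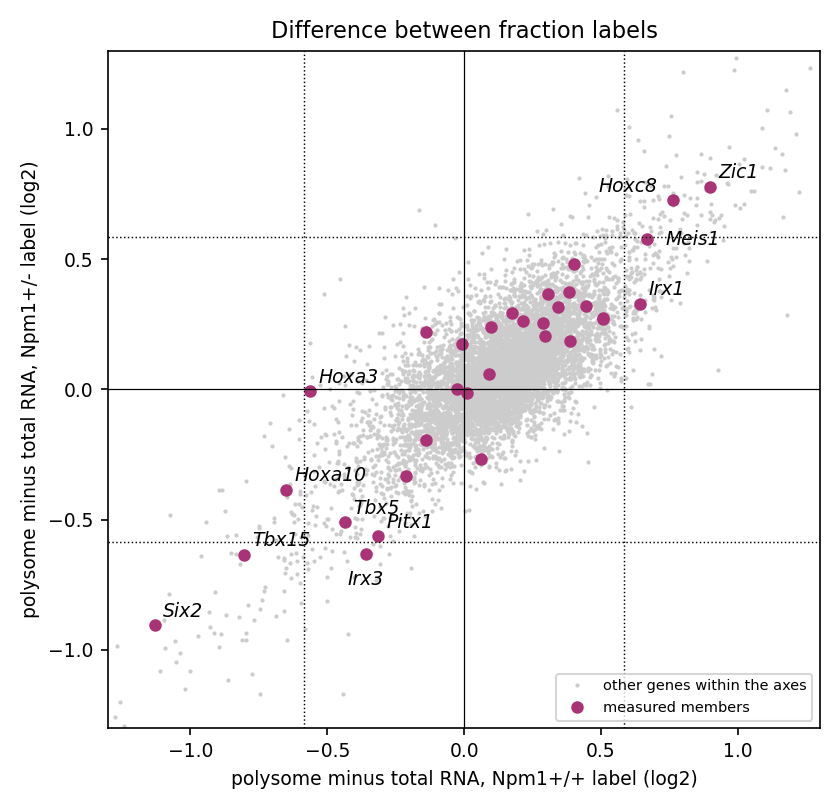
Log2 difference between the polysome and total libraries under the Npm1+/+ label (horizontal axis) and the Npm1+/- label (vertical axis) for the 32 measured members (purple) over the other measured genes within the axes (grey). Dotted lines mark 1.5-fold. Six2 (-1.13 and -0.91) and Tbx15 lie past it on the lower side of both axes, and Zic1 (0.90 and 0.78) and Hoxc8 on the upper side.

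The third comparison takes the difference between the 2 fraction differences, Npm1+/- minus Npm1+/+, and so uses all 4 arrays. At the chosen probe sets no member reached 1.5-fold, beside 0.306% of all measured genes. Neither a member nor any other gene (0%) reached 2-fold. A second probe set of Pitx1, below the median throughout, was past 1.5-fold at -0.85, whereas the chosen one was at -0.25. The member with the largest value was Hoxa3, at 0.55, with a fraction difference of -0.56 under the Npm1+/+ and -0.01 under the Npm1+/- label. It passed 1.5-fold after quantile normalisation and after subtraction of the trend with level. Its other probe set gave 0.30, with fraction differences of 0.12 and 0.42, so the sign of its fraction differences depended on the probe set. Hoxb3, of the same paralogue group, followed at 0.36, with fraction differences of -0.14 and 0.22. At the other end were Hoxc4 (-0.33) and Irx1 (-0.32). The SD between probe sets was 0.22 here. The 4 measured Irx genes lay between -0.32 and -0.12 and the 3 measured members Six2, Six4 and Six5 between 0.05 and 0.22. At the chosen probe sets each family had 1 sign under every scaling. The dim second probe set of Six4 was at -0.31. Of all measured genes 32.9% were above 0 in this comparison. The member median was -0.03, and that of all measured genes -0.07.

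Other genes of the same networks were taken as whole lists. Of all measured genes, 7.42% were past 1.5-fold higher and 6.23% lower in the Npm1+/- total library, and 2.08% and 5.86% in polysome RNA. Between fraction labels these shares were 3.65% and 1.56% under the Npm1+/+ label and 2.24% and 1.35% under the Npm1+/- label. The lists are small, so 1 gene is a large share of each. Polycomb proteins keep Hox genes silent and trithorax proteins keep them active. Of 17 measured Polycomb genes, 2 were past 1.5-fold higher in the Npm1+/- total library, Suz12 (0.65) and Cbx6 (0.61), and none was in polysome RNA. Of 11 measured trithorax and related genes only Hcfc1 passed between genotype labels, at -0.65 in total RNA. Retinoic acid switches on anterior Hox genes. Of 9 measured genes of its pathway, the binding proteins Crabp1 (0.84) and Crabp2 (0.75) were past 1.5-fold higher in total RNA, and they were at 0.47 and 0.39 in polysome RNA. Of 3 measured genes from a list of partners of Six2 and its relatives, the co-repressor gene Tle3 was past 1.5-fold higher in total RNA (0.62). In polysome RNA Tle3 was at 0.35. Between fraction labels Psip1 was past 1.5-fold higher in polysome RNA under both labels and Mllt3 lower under both, each 1 of the 11, and Crabp1 was higher under the Npm1+/+ label (0.95). None of the genes measured in these lists was past 2-fold in any comparison.

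A further list held 77 other patterning factors, of which 69 were on the array and 22 measured. In total RNA 3 were past 1.5-fold higher in the Npm1+/- library, led by Prrx1 (0.71), which marks limb and facial mesenchyme, and Lhx9 (0.63), and none was lower. In polysome RNA none was past it either way. The shares of all measured genes were 7.42% higher and 6.23% lower in total RNA, and 2.08% and 5.86% in polysome RNA. Between fraction labels Prrx2, a paralogue of Prrx1, read 10.89 and 10.82 in total and 9.92 and 9.87 in polysome RNA, a difference of -0.97 and -0.95. Of the 22, 1 was past 1.5-fold higher in polysome RNA under each label, Sim2, and 2 were lower. These 2 were Prrx2 with Osr1 under the Npm1+/+ and Prrx2 with Lhx9 under the Npm1+/- label. Of all measured genes 3.65% were higher and 1.56% lower under the Npm1+/+ label, and 2.24% and 1.35% under the Npm1+/- label. The median over the 22 measured genes between genotype labels was 0.30 in total and 0.29 in polysome RNA, beside 0.19 and 0.11 over all measured genes. Over all 69 on the array, most of them below the median level, it was 0.02 and 0.01.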

How the data were processed

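The authors deposited log2 values of 22690 probe sets on each array. According to the submitters' processing notes they used RMA in affy 1.56.0, under R 3.4.3. RMA corrects background, normalises between arrays and summarises probes. Its settings and the annotation's genome build are not given in the sources used here. Array medians lay between 7.47 and 7.59.

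The 64 manufacturer controls and probe sets with several symbols were left out. Genes were measured where the highest of 4 arrays reached 7.53. Differences were taken as deposited, with Python 3.11.15, pandas 2.3.3 and statsmodels 0.14.6, and counted at 2-fold and 1.5-fold. The functions were tested on simulated data.

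Named were all measured members, with values for those past 2-fold, the 3 largest differences each way per comparison and the 2 largest per family, and, of each other list, the 2 largest past 1.5-fold between genotype labels. Genes past 1.5-fold between fraction labels in the other lists and 3 members below the median with their values were named after those values were seen. Members and lists were chosen with earlier results of these data known.

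Other settings tried were averaging the probe sets of a gene, no _x_at or _s_at probe sets, other floors, median centring, quantile normalisation, a loess trend (span 0.3) and thresholds of 1.5-fold and 3-fold. The number of arrays limits the precision.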

Additional observations from a re-analysis of the deposited data

How the results depend on the processing

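The number of members counted as measured depended on the floor. It was 65 with no floor and 6 with a floor of 9.33, the 75th percentile, and between 27 and 33 under the other settings. Six2 remained past 2-fold under the Npm1+/+ label in every setting at that threshold except the floor at the 75th percentile, which it does not reach and which left 0 members. At 3-fold there were 0 members as well. Under the Npm1+/- label it also passed 2-fold when arrays were centred on their medians and when the loess trend was subtracted, 1 member each. At 1.5-fold the counts were 2 and 1 between genotype labels in total and polysome RNA, and 7 and 5 between fraction labels under the Npm1+/+ and Npm1+/- label. The members' median difference between genotype labels in total RNA, 0.20 as reported, was 0.11 with quantile normalisation, 0.06 with the loess trend, 0.02 with no floor and 0.43 with the highest floor. In polysome RNA it ranged from 0.06 with no floor to 0.29 with the highest floor, and the Npm1+/- fraction median from 0.06 with no floor to 0.23 without _x_at and _s_at probe sets. The Npm1+/+ fraction median turned from 0.14 to -0.02, -0.04 and -0.02 with centring, quantile normalisation and the loess trend, and the median of the third comparison from -0.03 to 0.03 with the loess trend. Of the 160 differences of single members, 5 moved by more than the SD between probe sets with the mean of all probe sets, among them Pitx1 in total RNA (0.72) and Hoxa3 under the Npm1+/+ label (-0.22), and none did under the other settings that gave a value. With 1 array per group, no library could be left out.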

Other observations

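Probe sets whose annotation lists 2 member genes each were left out of the report, and there were 3 of them. The one listed for both Hoxb7 and Hoxb8 read 6.83 in the Npm1+/+ and 7.71 in the Npm1+/- total library, and 6.86 and 7.26 in polysome RNA. Its difference between genotype labels was 0.88 in total and 0.40 in polysome RNA, the former larger than that of any measured member. The probe set listed for Hoxb7 alone was at -0.20 and -0.10, with values between 5.17 and 5.64. The 2 probe sets listed for both Hoxd3 and Hoxd4 differed by -0.19 and -0.15 in total RNA, with no value above 6.39.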
